A study of Mus musculus with 18 samples.

Results

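Myelin and oligodendrocyte genes were examined in the mouse hippocampus on 18 single-colour DNA microarrays. The set was a named list of 9 genes, Mbp, Mobp, Mog, Mag, Cnp, Aspa, Qdpr, Cryab and Gjb1. A gene was included when the platform's annotation gave its symbol, or an older synonym of it, to a probe of the array. This gave 8 of the 9 genes 1 probe each, among 23473 probes, with Cnp listed under its older name Cnp1. Mog was not analysed here. All 8 probes passed the filter on dim probes, as did 22544 probes in all, and each of the 8 lay above the blank spots on every array.

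The groups of mice were 4 AtrxΔE2 mice given 5-aminolevulinic acid (5-ALA), 7 AtrxΔE2 mice without it, and 7 wild-type (WT) mice. AtrxΔE2 is an allele of the X-linked gene Atrx, which encodes a chromatin remodeller, and ΔE2 stands for the deletion of its exon 2; 5-ALA is the precursor from which haem is made. The drug was given by mouth at 3 mg/kg daily from postnatal day 30 to day 90. The labels name no vehicle for the other mice and give neither their sex nor their age at sampling, and they count as many mice as arrays. The array identifiers fell into 2 series. Series 2 held all 4 of the 5-ALA arrays, AtrxΔE2 arrays 4 to 7 and WT arrays 4 to 7, and series 1 held AtrxΔE2 arrays 1 to 3 and WT arrays 1 to 3. What else differed between the series is not stated in the labels.

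Oligodendrocytes wrap axons of the central nervous system in myelin, a stack of membrane that is held together by a small set of abundant proteins. Mbp seals the cytoplasmic faces of the membrane, Mobp is a related cytoplasmic protein, Mag sits on the inner turn facing the axon, and Cnp keeps cytoplasmic channels open within the sheath. Aspa, Qdpr, Cryab and Gjb1 are not structural proteins of compact myelin but are strongly expressed by mature oligodendrocytes. Aspa releases acetate from N-acetylaspartate for lipid synthesis, Qdpr regenerates the cofactor tetrahydrobiopterin, Cryab is a small heat shock protein, and Gjb1 encodes the gap junction protein connexin 32. In the hippocampus myelin lies mainly in the alveus, the fimbria and other fibre tracts.

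The SOX family factors of the oligodendrocyte lineage bind a core that can be written ACAAAG. No link between this core and the changes below was tested, and windows of Cnp and Mag that hold it are not shown. Shown are 4 promoter windows of members, which differ in how often they hold the core. The windows are the 250 bases before a start in RefSeq on GRCm38.p6. They lie at chrX:101383482-101383731 (Gjb1, plus strand), chr9:120149492-120149741 (Mobp, plus strand), chr11:73324638-73324887 (Aspa, minus strand) and chr5:45450230-45450479 (Qdpr, minus strand), each written 5′ to 3′ on its gene's strand. Capitals mark ACAAAG or its reverse complement CTTTGT.
Gjb1: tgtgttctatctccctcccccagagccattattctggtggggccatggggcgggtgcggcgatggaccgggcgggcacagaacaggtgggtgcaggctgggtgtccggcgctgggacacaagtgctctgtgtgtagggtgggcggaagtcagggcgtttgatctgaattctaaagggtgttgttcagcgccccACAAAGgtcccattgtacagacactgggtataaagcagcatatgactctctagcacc
Mobp: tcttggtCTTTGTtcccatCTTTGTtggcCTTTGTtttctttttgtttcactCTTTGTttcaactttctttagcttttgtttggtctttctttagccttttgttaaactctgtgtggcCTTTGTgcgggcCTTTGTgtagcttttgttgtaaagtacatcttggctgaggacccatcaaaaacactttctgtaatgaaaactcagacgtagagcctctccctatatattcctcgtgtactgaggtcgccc
Aspa: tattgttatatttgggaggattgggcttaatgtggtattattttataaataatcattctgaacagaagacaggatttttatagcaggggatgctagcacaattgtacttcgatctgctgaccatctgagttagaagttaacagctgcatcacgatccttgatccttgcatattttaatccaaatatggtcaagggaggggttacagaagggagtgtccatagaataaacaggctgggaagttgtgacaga
Qdpr: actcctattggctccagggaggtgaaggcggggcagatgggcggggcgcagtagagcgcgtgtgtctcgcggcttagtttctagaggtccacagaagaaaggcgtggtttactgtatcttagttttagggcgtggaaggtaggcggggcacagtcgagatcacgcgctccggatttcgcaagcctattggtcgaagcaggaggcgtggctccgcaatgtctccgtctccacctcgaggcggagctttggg
The Mobp window held 6 copies, all in the CTTTGT orientation, the Gjb1 window shown held 1, and the Aspa and Qdpr windows held 0. Gjb1 has other windows, of which that at chrX:101376126-101376375 held 1 copy. Those at chrX:101376985-101377234 and chrX:101381868-101382117 held 0. Of 32851 windows searched on both strands, 16.5% held at least 1 copy, and 0.00304% held 6, the most in any window. The table held 12 windows of 7 members, Mog included. The motif was in 6 of these windows, belonging to 4 members (Cnp, Gjb1, Mag and Mobp). The Mag windows at chr7:30914864-30915113 and chr7:30914923-30915172 overlap and hold the same copy, which is counted in each. A match is a match of letters in the window, and no binding was measured here. A filter by chromosome was applied to the member windows before these counts, and not to the 32851 windows searched. No window was used for Mbp and Cryab, so the member counts do not cover them.

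Levels per array are given below as the authors' normalized intensity, a linear scale on which the median probe of every array is 25. Log2 changes, standard errors and p-values come from limma, fitted to the spot intensities of all 18 arrays after background correction with an offset of 50. A gene counted as called where its p-value, adjusted by Benjamini-Hochberg over the 22544 probes of that comparison, was under 0.05. The offset makes the log2 change of a dim gene such as Gjb1 smaller than its fold on the authors' scale. In bulk tissue, fewer oligodendrocytes and less RNA per oligodendrocyte cannot be told apart.

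Some facts of the arrays bear on every value. Atrx itself was lower in AtrxΔE2 than in WT by 0.52 in series 1 and by 0.29 in series 2 on the log2 scale, at adjusted p of 0.179 and 0.0927. Where its probe lies relative to the deletion is not given, so it does not check the labels. In series 2, arrays of a group with neighbouring numbers (1 with 2 and 3 with 4 for 5-ALA, 4 with 5 and 6 with 7 for the others) resembled each other more than other arrays of the group did. Their deviations from the group mean correlated at 0.45 and 0.42 for 5-ALA, 0.19 and 0.25 for AtrxΔE2 and -0.20 and 0.02 for WT, against -0.77 to -0.26 for arrays without neighbouring numbers, and deviations from a shared mean correlate negatively by construction. The consensus correlation was 0.339, so p-values that count these arrays as independent may be too small. The mean of the blank spots in series 2 was 61.9 to 63.2 on 5-ALA arrays, 59.3 to 61.6 on AtrxΔE2 arrays and 55.3 to 56.6 on WT arrays. Genes of neighbouring tissues differed by series. Ttr, which marks the choroid plexus, lay between 23789 and 34507 in series 2 and between 4.9 and 68.8 in series 1.

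The first comparison asked how 5-ALA-treated AtrxΔE2 mice differ from untreated AtrxΔE2 mice on the arrays of series 2. In the treated mice, 5 of the 8 members fell, namely Mbp, Aspa, Qdpr, Cryab and Gjb1, to between 0.637 and 0.758 of the untreated level on the authors' scale. With neighbouring arrays as a random block Gjb1 alone was called, the other 4 having an adjusted p of 0.0968 to 0.117, and with these arrays averaged in pairs 0 members were called by limma, with 6 at an unadjusted p under 0.05. Mobp was lower by as much but missed the threshold. Mag and Cnp were not called. Of all probes tested, 3.26% were called lower and 3.49% higher in this comparison. The median change of the members was -0.48 on the log2 scale, against -0.00040 over all probes. The members were chosen with earlier results of these data known. Their contrasts with all probes, here and below, are therefore descriptive and no independent test.

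Mbp had 2697, 2535, 3847 and 3819 intensity units on 5-ALA arrays 1 to 4, against 5123, 5363, 4463 and 4936 on AtrxΔE2 arrays 4 to 7. Every treated array was below every untreated one, and treated arrays 1 and 2 were the lowest. The mean was 3224 ± 706 in treated and 4971 ± 381 in untreated AtrxΔE2 mice (SD, n = 4 each), and the log2 change was -0.65 (SE 0.170, adjusted p 0.0361). For Mobp, the treated arrays gave 2179, 1731, 3169 and 3047, against 3851, 3654, 4027 and 3527 in untreated AtrxΔE2 mice. These groups did not overlap either, but the spread of the treated arrays was wide and the change of -0.63 (SE 0.215) had an adjusted p of 0.0947.

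Among the enzymes, Aspa had 149.9, 132.9, 180.2 and 185.3 units in treated mice, against 236.4, 229.1, 239.0 and 220.9 in untreated AtrxΔE2 mice. The untreated arrays lay close together, and all 4 treated arrays were below them. The log2 change was -0.52 (SE 0.144, adjusted p 0.0441). Qdpr had 1422, 1390, 1613 and 1503 units in treated mice, against 2038, 1983, 2007 and 1796 in untreated AtrxΔE2 mice. It fell by 0.40 on the log2 scale (SE 0.0952, adjusted p 0.0244), again without overlap.

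Cryab, the small heat shock protein gene, had 244.8, 241.6, 360.0 and 302.6 units in treated mice, against 434.4, 441.2, 436.8 and 490.0 in untreated AtrxΔE2 mice. With -0.67 (SE 0.175, adjusted p 0.0353) it had the largest log2 change of the 8. The connexin gene Gjb1 had 41.6, 38.7, 32.3 and 36.4 units in treated mice, against 60.3, 64.0, 49.9 and 59.8 in untreated AtrxΔE2 mice. Its log2 change was -0.43 (SE 0.0595), and its adjusted p of 0.00137 was the smallest among the members. On the authors' scale the treated mean of Gjb1 was 0.637 of the untreated one, the same ratio as for Cryab.

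The other 2 members overlapped between the groups. Mag, the adhesion protein of the inner turn, had 523.6, 424.7, 411.7 and 426.2 units in treated mice, against 521.7, 572.9, 487.7 and 443.7 in untreated AtrxΔE2 mice. Its change was -0.21, with a 95% interval from -0.53 to 0.11. Cnp had 2429, 2141, 1800 and 1478 units in treated mice, against 1684, 1888, 1748 and 1988 in untreated AtrxΔE2 mice. Its change was 0.08, with a 95% interval from -0.32 to 0.49. In all, the groups did not overlap for 6 of 8 members, each lower in treated mice, against 5.78% of all probes lower without overlap.

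**Figure D1:**
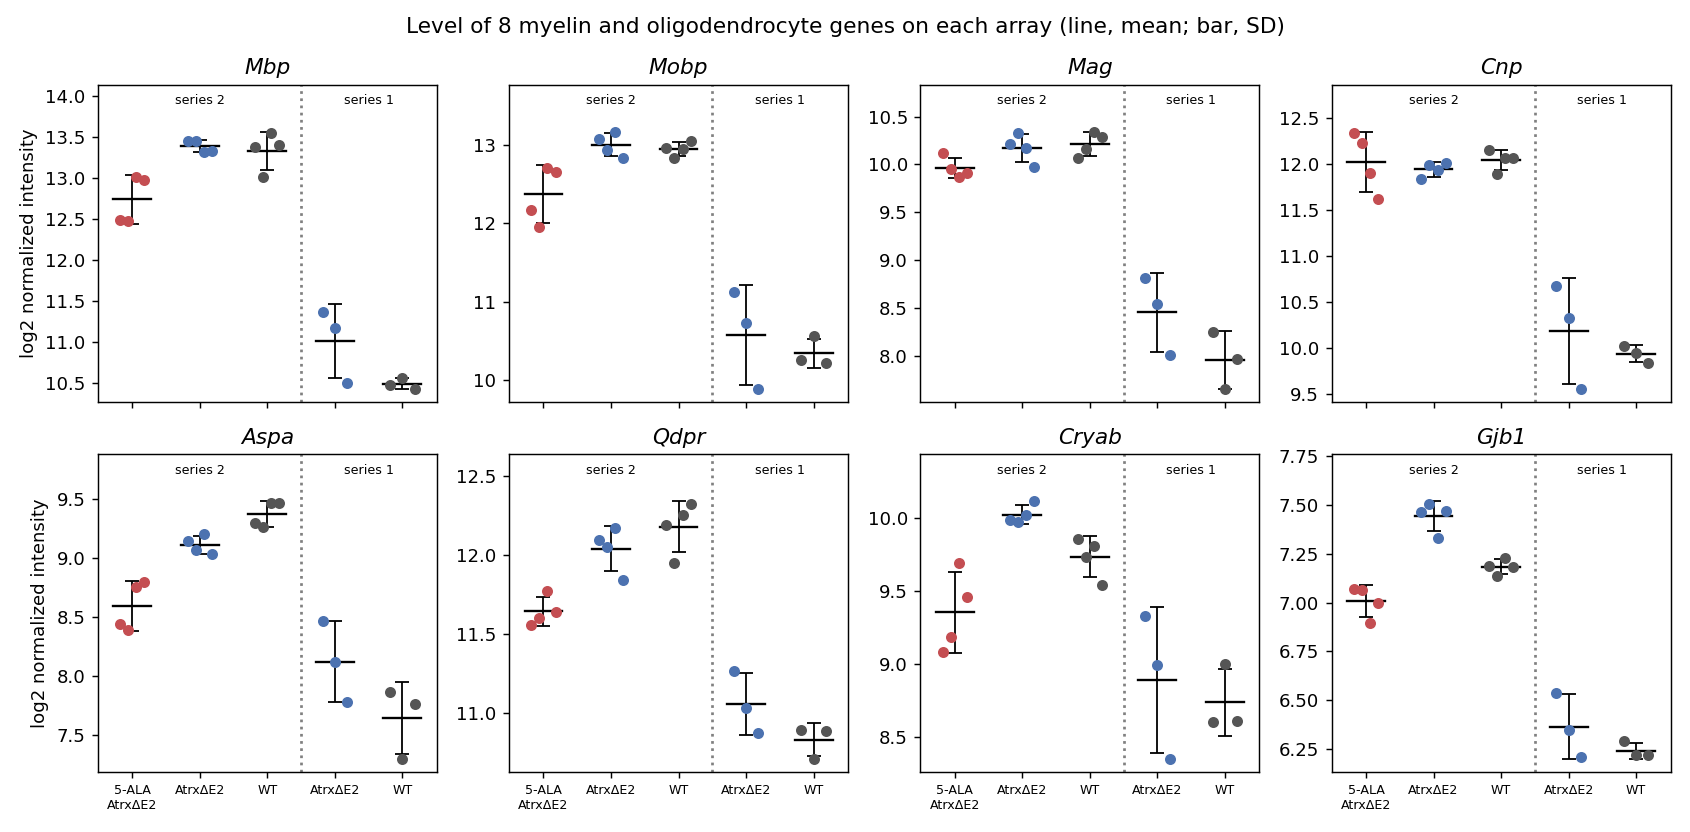
Level of each of the 8 members on each array, as log2 normalized intensity on the vertical axis of each panel, with points for arrays, a line for the group mean and a bar for 1 SD. In series 2 (left of the dotted line) the 5-ALA arrays lie below the untreated AtrxΔE2 arrays for 6 genes, and every array of series 2 lies above every array of series 1 of the same group for all 8.

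The 4 treated arrays were not alike. Set against the mean of the untreated AtrxΔE2 arrays on the log2 scale, the median member lay at -0.58 on arrays 1 and 2, at -0.32 on array 3 and at -0.37 on array 4. Arrays 1 and 2 were both below arrays 3 and 4 for Mbp, Mobp, Aspa, Qdpr and Cryab, and both above them for Mag, Cnp and Gjb1. The treated arrays split in this way for 8 of 8 members, where 54.4% of all probes did so. Untreated AtrxΔE2 arrays split by neighbouring number for 3 of 8 members (46.8% of all probes), and WT arrays for 4 of 8 (40.7%). On arrays 1 and 2, 7 members were below the untreated mean, with Cnp the exception, and all 8 were below it on arrays 3 and 4.

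**Figure D2:**
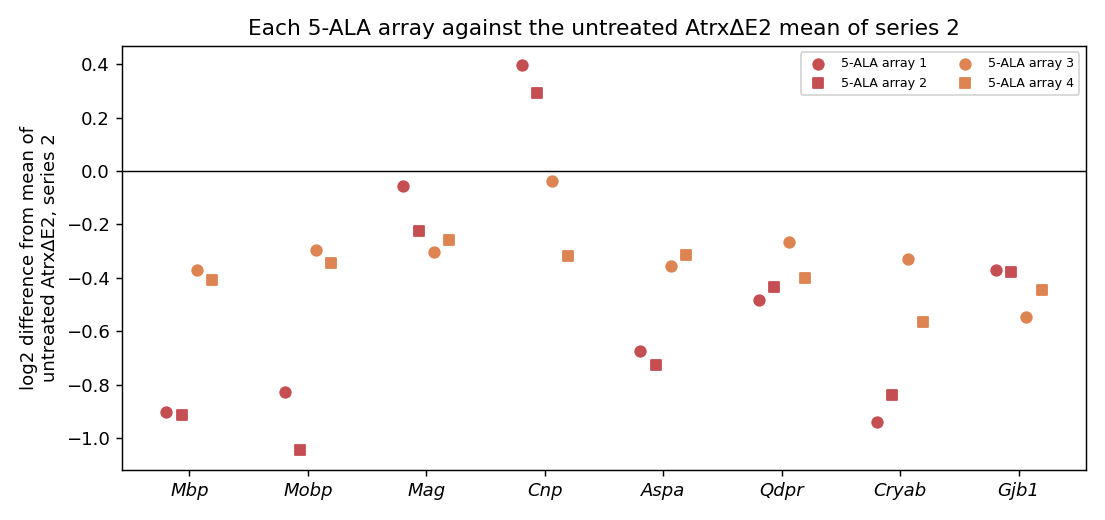
Difference of each 5-ALA array from the mean of the 4 untreated AtrxΔE2 arrays of series 2, in log2 units, for each member; red points are arrays 1 and 2 and orange points arrays 3 and 4. The pair of arrays 1 and 2 is the lower one for 5 genes and the higher one for Mag, Cnp and Gjb1, and Cnp on arrays 1 and 2 is the only value above 0.

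Taking the resemblance of neighbouring arrays into account changed the calls. With neighbouring arrays as a random block, Gjb1 had an adjusted p of 0.00929. With each neighbouring pair averaged to 1 value, 2 against 2 per comparison, that of Gjb1 was 0.211. With the authors' values as input, 2 members were called, Gjb1 (adjusted p 0.0410) and Qdpr (adjusted p 0.0489). Without 5-ALA arrays 1 and 2, Gjb1 was the 1 member called (adjusted p 0.00848), and the change of Mbp was -0.39. Leaving out single arrays ended the call of Mbp in 6 of 18 fits, of Aspa in 12, of Qdpr in 5, of Cryab in 6 and of Gjb1 in 0.

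Treated AtrxΔE2 mice were also compared with WT mice of series 2, which shows where the treated level lay relative to wild type. This comparison shares the treated arrays with the one above. Aspa fell to 162.1 ± 24.9 units in treated mice, against 298.9 ± 27.4 in WT mice (SD, n = 4 each), a log2 change of -0.78 (SE 0.144, adjusted p 0.0055). Its WT arrays gave 278.1, 274.2, 312.3 and 330.9, all above the treated ones. Qdpr fell by 0.53 (SE 0.0952, adjusted p 0.00448), with 1390 to 1613 units in treated mice and 2102, 1947, 2298 and 2543 in WT mice. Mbp fell by 0.60 (SE 0.170, adjusted p 0.0391), and its WT arrays had 4725, 4057, 5653 and 5487 units. On the authors' scale the treated Mbp arrays did not reach the lowest WT array, whereas on the log2 scale used for the test the highest treated array lay just above the lowest WT array.

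These 3 of 8 calls compare with 4.87% of all probes called lower and 5.49% called higher. All 8 members had a negative estimate, with a median of -0.46 against 0.0023 over all probes. Mobp (-0.57, adjusted p 0.100), Cryab (-0.38, adjusted p 0.173), Mag (-0.25, adjusted p 0.304) and Cnp (-0.02, adjusted p 0.967) were not called. Gjb1, at 41.6 units or less in treated mice and 45.7 to 48.8 in WT mice, did not overlap but missed the threshold at -0.18 (adjusted p 0.0703). Groups did not overlap for 4 members (Mobp, Aspa, Qdpr and Gjb1), each lower in treated mice, against 7.67% of all probes. Leaving out single arrays ended the call of Mbp in 5 of 18 fits and those of Aspa and Qdpr in 0. With neighbouring arrays as a random block, Aspa (adjusted p 0.0220) and Qdpr (adjusted p 0.0271) were called and Mbp was not (adjusted p 0.0991). With these arrays averaged in pairs, 0 members were called by limma, with 5 at an unadjusted p under 0.05. Without treated arrays 1 and 2, 0 were called and 3 had such a p, and without WT arrays 6 and 7, 0 were called and 2 had such a p.

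The genotype comparison in series 2 asked whether untreated AtrxΔE2 mice differ from WT mice. Gjb1 was the 1 member called. It had 60.3, 64.0, 49.9 and 59.8 units in AtrxΔE2 mice, against 46.9, 45.7, 48.8 and 48.7 in WT mice. The lowest AtrxΔE2 array was just above the highest WT array. The log2 change was 0.26 (SE 0.0595, adjusted p 0.0343), while 1.22% of all probes were called higher and 1.19% lower. This call ended in 7 of 18 fits that left out 1 array (without WT array 4, 5, 6 or 7 or AtrxΔE2 array 4, 5 or 7; adjusted p up to 0.103), and with neighbouring arrays as a block (adjusted p 0.125). The genotype and treatment comparisons share the untreated AtrxΔE2 arrays.

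Aspa and Cryab did not overlap between the genotypes but were not called, and among all probes 6.29% were higher and 5.74% lower without overlap. Aspa had 220.9 to 239.0 units in AtrxΔE2 mice and 274.2 to 330.9 in WT mice (log2 change -0.26, SE 0.144, adjusted p 0.391). Cryab had 434.4 to 490.0 units in AtrxΔE2 mice and 348.2 to 415.7 in WT mice (0.29, SE 0.175, adjusted p 0.442). The other 5 members overlapped. Mbp averaged 4971 ± 381 units in AtrxΔE2 mice and 4981 ± 737 in WT mice (SD, n = 4 each), with a 95% interval of its log2 change from -0.31 to 0.42. The median over the 8 was 0.0073, beside 0.0024 over all probes. Across the groups of series 2, the order of the means for Aspa, Qdpr and Mag was treated AtrxΔE2 lowest, untreated AtrxΔE2 next and WT highest. Their untreated AtrxΔE2 and WT means did not differ past the threshold. For Cryab and Gjb1 the untreated AtrxΔE2 mean was the highest of the 3, with treated mice lowest. Mbp and Mobp had that order on the log2 scale, whereas on the authors' scale their WT mean was the highest. Cnp departed from the others on either scale, with untreated AtrxΔE2 lowest (log2 mean 11.94), treated AtrxΔE2 next (12.02) and WT highest (12.04).

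**Figure D3:**
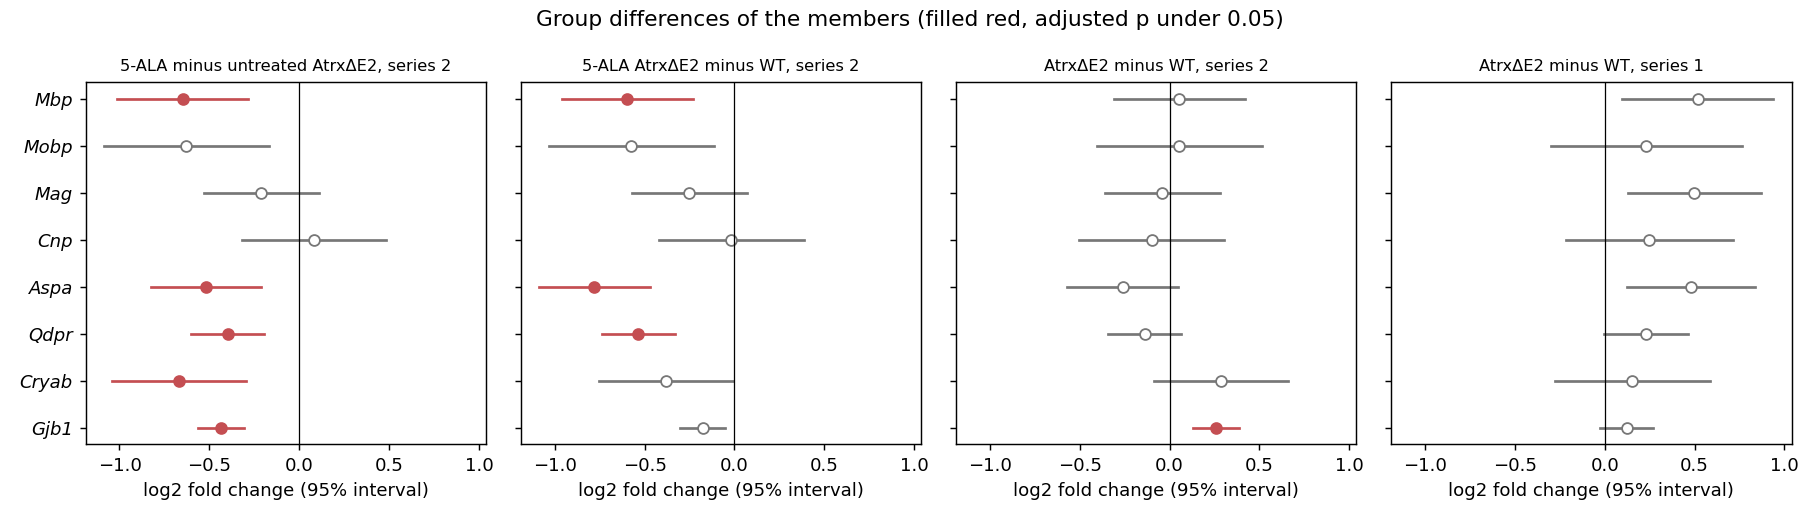
Log2 fold changes of the 8 members (points) with 95% intervals (lines) for 4 comparisons within a series, the group named first minus the one named second; filled red points have an adjusted p under 0.05. There are 5 members called below untreated AtrxΔE2 after 5-ALA, 3 below WT after 5-ALA, Gjb1 above WT in untreated AtrxΔE2 mice of series 2, and 0 in series 1.

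In series 1, AtrxΔE2 was set against WT with 3 arrays each. All 8 members had a positive estimate, between 0.12 for Gjb1 and 0.52 for Mbp on the log2 scale, with a median of 0.24 against -0.00081 over all probes. None was called by limma (adjusted p 0.9997 each). Of the 8 members, 3 (Mbp, Mag and Aspa) had an unadjusted p under 0.05, as did 3.02% of all probes, and 0.00887% of all probes were called. The AtrxΔE2 arrays differed among themselves. Mbp had 1658, 1552 and 872.3 units in AtrxΔE2 mice, against 904.2, 974.3 and 901.2 in WT mice. Relative to the WT mean on the log2 scale, the median member lay at 0.75 on AtrxΔE2 array 1 and at 0.39 on array 2, with 8 of 8 members above it on both, and at -0.01 on array 3, with 4 of 8 above it. The median SD of a member was 0.43 log2 units over the 3 AtrxΔE2 arrays and 0.14 over the 3 WT arrays. Without single arrays the median change ranged from 0.08 to 0.57. Striatal genes were also highest on AtrxΔE2 array 1. Their summed level was 1845, 1112 and 1093 units on AtrxΔE2 arrays 1 to 3, against 936.2, 828.4 and 1187 on WT arrays 1 to 3, with 8 of 9 estimates positive and a median of 0.16, and their part in the members' values was not tested.

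The genotype effect was 0.36 lower in series 2 than in series 1 in the median member on the log2 scale. The test of this difference called 0 of 8 members by limma, with 3 at an unadjusted p under 0.05 (Aspa -0.74, adjusted p 0.318; Mag -0.54; Qdpr -0.37), where 0.102% of all probes were called and 8.94% had such a p. A difference in genotype effect between the series was therefore not shown for any member.

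The largest differences among the members were between the series. In WT mice all 8 were higher in series 2 than in series 1 by 0.94 to 2.84 on the log2 scale, with a median of 1.92 against -0.01 over all probes. Mbp had 4057 to 5653 units in WT mice of series 2 and 901.2 to 974.3 in WT mice of series 1, a log2 change of 2.84 (SE 0.184, adjusted p 5.27e-08). Mobp had 3572 to 4265 units in series 2 and 766.3 to 972.1 in series 1. On the authors' scale the folds ran from 1.61 for Cryab and 1.89 for Qdpr to 4.45 for Mag, 4.53 for Mobp and 5.38 for Mbp. All 8 were called, beside 18.5% of all probes called higher and 23.0% called lower. The arrays of the 2 series did not overlap for any of the 8, as for 21.8% of all probes that were higher. In untreated AtrxΔE2 mice the 8 members were also all higher in series 2, by 0.98 to 2.43 on the log2 scale, beside 19.5% of all probes called higher, and 8 of 8 did not overlap, against 22.7% of all probes higher without overlap. There the folds on the authors' scale ran from 1.43 for Qdpr to 3.65 for Mbp. The series are known from the array identifiers alone, and the series and whatever else differed between these arrays cannot be told apart.

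The summed level of the 8 members shows the size of this step beside the treatment difference. It was 8635 to 11413 units on 5-ALA arrays, 13458 to 14195 on AtrxΔE2 arrays and 12663 to 15758 on WT arrays of series 2. In series 1 it was 3421 to 6518 on AtrxΔE2 arrays and 3950 to 4089 on WT arrays. All treated arrays were thus below the other arrays of series 2 and above every array of series 1.

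Wider oligodendrocyte genes were counted from 4 lists of other myelin membrane, myelin lipid, lineage factor and mature oligodendrocyte genes, of which 42 of 50 were measured. Between the series they followed the members. In WT mice 38 of 42 were called higher in series 2 and 0 lower, with a median of 1.05, and in AtrxΔE2 mice 38 of 42, with a median of 0.78. The 8 of smallest p in WT mice were the lysophospholipase gene Enpp2 (2.90), which the choroid plexus also makes, the oligodendrocyte protease gene Klk6 (1.94), the sphingolipid hydroxylase gene Fa2h (0.67), the membrane gene Pmp22 (1.06), the lineage transcription factor gene Olig1 (1.43), Hapln2 (1.29), a matrix link protein gene of the node of Ranvier, Bcas1 (2.65) and the tight junction gene Cldn11 (1.92). Of 12 oligodendrocyte precursor genes, 4 were called higher and 2 lower in WT mice of series 2, with a median of 0.07, beside 18.5% of all probes called higher and 23.0% called lower. On the authors' scale their summed level, in which bright genes weigh most, was 1282 to 1498 units in WT mice of series 2 and 2039 to 2182 in series 1. Their mean log2 value overlapped, at 7.09 to 7.16 in series 2 and 7.07 to 7.13 in series 1. Pdgfra, the receptor that defines precursors, was not called, with 109.8 to 131.3 units in WT mice of series 2 and 124.6 to 136.3 in WT mice of series 1. The precursor proteoglycan gene Cspg4, with 18.3 to 22.6 units in series 2 and 14 to 15.8 in series 1, and Gpr17, a receptor gene of committed precursors, with 7.0 to 9.2 units in series 2 and 3.6 to 5.0 in series 1, were called higher.

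After 5-ALA, relative to untreated AtrxΔE2 mice, 5 of the 42 were called lower and 1 higher, beside 3.26% of all probes called lower and 3.49% higher. The median of the 42 was -0.08, nearer to 0 than that of the members. The 5 were the membrane genes Pmp22 (-0.38, adjusted p 0.00112), Cd9 (-0.41, adjusted p 0.0232) and Sirt2 (-0.44, adjusted p 0.0346), the glycolipid transfer gene Gltp (-0.47, adjusted p 0.0050) and the fatty acid elongase gene Elovl1 (-0.26, adjusted p 0.0251). Pmp22 and Cd9 are also made by other cells. The lineage factor Olig2 was the one that rose (0.29, adjusted p 0.0234), with 76.1 to 100.4 units in treated mice, 64.0 to 67.9 in untreated AtrxΔE2 mice and 83.0 to 97.7 in WT mice. None of the 12 precursor genes was called by limma, with a median of 0.01.

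Against WT mice, 12 of the 42 were called lower and 1 higher in treated mice, with a median of -0.16, beside 4.87% of all probes called lower and 5.49% higher. The 7 of smallest p were Pmp22 (-0.50), Klk6 (-0.51), Gltp (-0.45), Olig1 (-0.40), the myelin membrane gene Opalin (-0.86), Fa2h (-0.13) and the myelin regulatory factor gene Myrf (-0.11), with adjusted p between 0.000159 and 0.0217. Of the 12 precursor genes 2 were called lower, Gpr17 (-0.13, adjusted p 0.0184) and Lhfpl3 (-0.48, adjusted p 0.0437). In the genotype comparison of series 2, 1 was called higher (Enpp2, 0.29, also made by the choroid plexus) and 1 lower (Olig2, -0.32, adjusted p 0.0228), with a median of -0.07, beside 1.22% of all probes called higher and 1.19% lower. The precursor gene Lhfpl3 was lower there too (-0.61, adjusted p 0.0344). In series 1, 0 of 42 were called by limma, 38 of 42 had a positive estimate and the median was 0.17. The 2 of smallest p there were Cd9 (0.46) and Opalin (0.66).

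Markers of other cells and neighbouring tissues moved in the same comparisons, and their part in the members' results was not tested. After 5-ALA relative to untreated AtrxΔE2 mice, 7 of 10 choroid plexus genes (median -0.32), 5 of 9 striatal genes (median -0.56) and 4 of 11 microglial genes (median -0.33) were called lower. Higher calls were made for 2 of 10 thalamic and septal genes (median 0.34) and 2 of 8 CA1 genes (median 0.31). These counts stand beside 3.26% of all probes called lower and 3.49% called higher. The summed striatal level was 3780 to 4498 units on treated arrays and 6543 to 7587 on untreated AtrxΔE2 arrays. Penk (-0.96) and Tac1 (-0.69), neuropeptide precursors of striatal neurons, and Sostdc1 (-0.67) of the choroid plexus fell by more than most members.

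For 5-ALA against WT, 7 of 11 microglial genes were called lower (median -0.29), 0 of 9 striatal genes were called by limma (median -0.23), and choroid plexus genes were called in both directions, 3 higher and 3 lower. Lower calls were also made for 2 of 10 thalamic and septal genes (median -0.61) and 3 of 11 astrocyte genes (median -0.13), and 2 of 8 CA1 genes (median 0.09) were called higher. Of all probes, 4.87% were called lower and 5.49% higher against WT. In the genotype comparison of series 2, 5 of 10 choroid plexus genes were called higher (median 0.30) and 5 of 10 thalamic and septal genes (median -0.99) and 3 of 11 astrocyte genes (median -0.15) lower. The shares of all probes in it were 1.22% called higher and 1.19% called lower. The summed thalamic and septal level was 543.8 to 1173 units on AtrxΔE2 arrays and 1961 to 2504 on WT arrays of series 2. Between the series in WT mice, 10 of 10 choroid plexus genes (median 2.61), 8 of 9 striatal genes (median 1.13) and 8 of 10 thalamic and septal genes (median 1.23) were called higher in series 2. The 11 astrocyte genes had a median of 0.08 there, the 10 neuronal genes 0.04, the 11 microglial genes 0.06, the 10 endothelial genes 0.11, the 10 meningeal and fibroblast genes -0.12 and the 9 dentate granule genes 0.0035. On the authors' scale, some summed levels were lower in WT mice of series 2 than of series 1 without overlap. Neuronal genes summed to 10905 to 11927 units against 16953 to 18553, and astrocyte genes to 8252 to 9049 against 12166 to 13120. Dentate granule genes gave 614.5 to 816.7 against 936.6 to 1404, and CA1 genes 524.5 to 667.3 against 1888 to 2358. Bright genes weigh most in such sums, and of these lists only CA1 genes were also lower in mean log2 value. That mean was higher in series 2 for astrocyte genes (9.27 to 9.34 against 9.11 to 9.26) and dentate granule genes (7.07 to 7.30 against 6.91 to 7.03). For neuronal genes it overlapped (10.26 to 10.42 against 10.06 to 10.26). Microglial, endothelial and meningeal sums overlapped. Of the 8 CA1 genes, which mark pyramidal neurons of the hippocampus, 3 were called lower and 1 higher in WT mice of series 2, with a median of -0.14. Of all probes, 18.5% were called higher and 23.0% lower in that comparison of the series. The 3 measured genes of peripheral nerve myelin summed to between 33.3 and 65.4 units on every array.

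**Figure D4:**
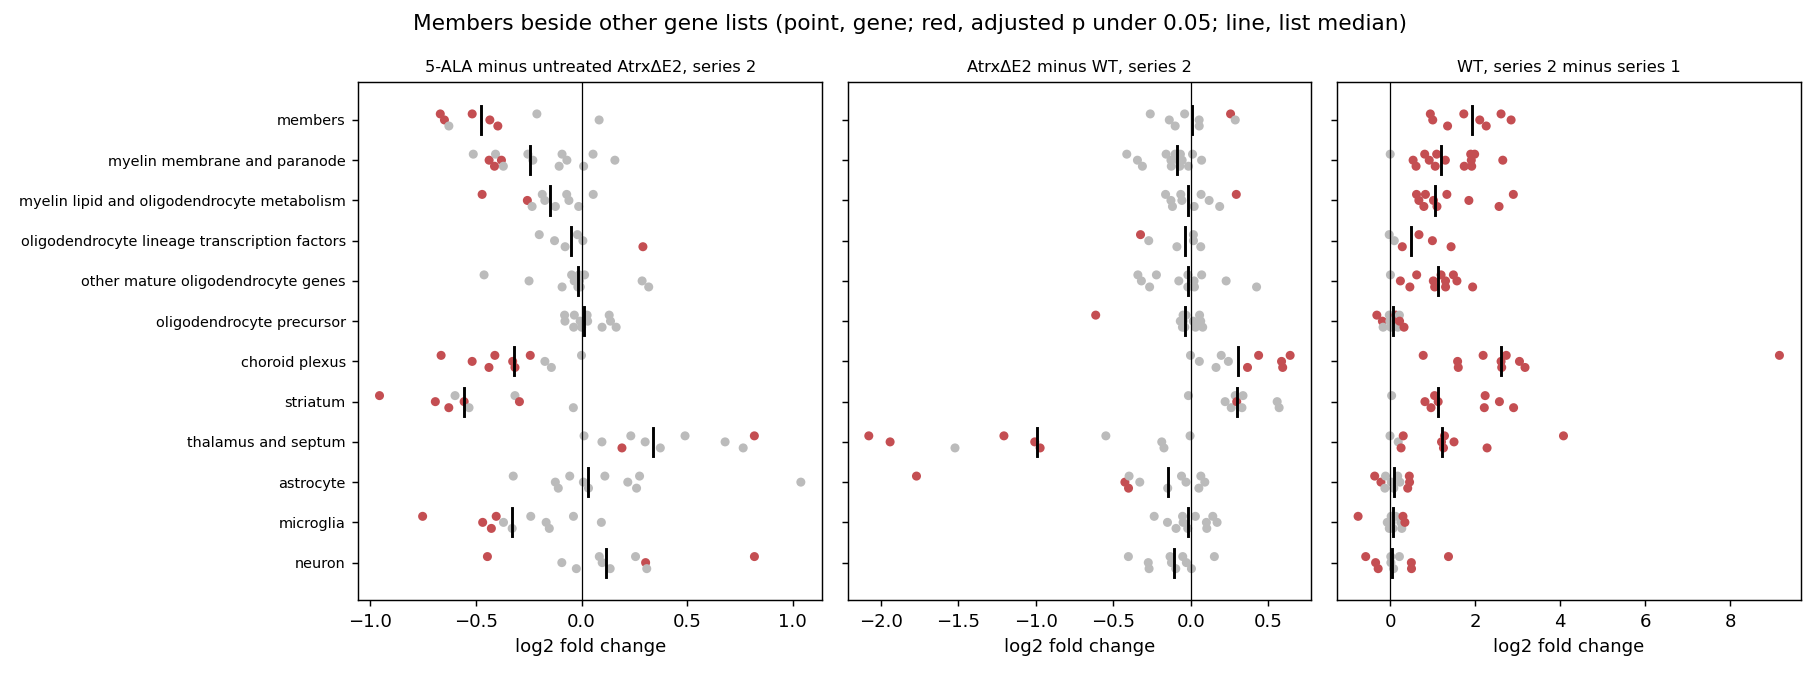
Log2 fold changes of the members and of genes in 11 other lists (points, red with an adjusted p under 0.05; black line, list median) for 5-ALA minus untreated AtrxΔE2, AtrxΔE2 minus WT, and WT series 2 minus series 1. The member median is -0.48, 0.0073 and 1.92 in these panels; choroid plexus, striatal and thalamic lists shift in them too, while the median of the precursor list lies between -0.03 and 0.07.

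How far the members varied together within groups depended on the AtrxΔE2 arrays of series 1. After subtracting the mean of each group in each series, the correlation of a member with the mean of the other 7 over 18 arrays was between 0.51 for Cnp and 0.83 for Mbp. AtrxΔE2 arrays 1 and 3 of series 1 held 81.9% of the squared deviation of the member mean. Without the 3 AtrxΔE2 arrays of series 1, a choice made after seeing the data, the correlation was 0.75 for Mbp, 0.69 for Qdpr, 0.50 for Aspa, 0.41 for Mobp, 0.043 for Cryab, 0.018 for Mag, -0.30 for Gjb1 and -0.52 for Cnp. The gene outside the set most like the member mean over 18 arrays was Ermn, an oligodendrocyte cytoskeletal gene (r = 0.926, and 0.902 over the other 15), followed by Tnfaip6, Gatm, Grb14, Cldn11, Timd4, Pdlim2, Nfe2l3, Plpp2 and Arsg, down to 0.816. Over these 15 arrays Cldn11 had an r of 0.801 and Gatm 0.701, and the other 7 lay between 0.061 and 0.491. The 42 wider oligodendrocyte genes had a median correlation of 0.447 over 18 arrays, beside 0.0111 over all 15914 genes ranked, and over the 15 arrays of -0.00052, beside -0.027. The 6 lineage factors measured lay over 18 arrays at 0.41 (Zfp488), 0.22 (Sox10), 0.19 (Sox8), 0.13 (Myrf), 0.080 (Olig2) and 0.051 (Olig1). Over the arrays as measured, where the step between the series sets the correlation, the most like were Grb14 (0.990), Cldn11 (0.989), the probe annotated as Gje1 (0.987), Pdlim2 and Hapln2 (0.981). Gje1 is also an older synonym of the oligodendrocyte connexin gene Gjc3, so which of them that probe reads is uncertain. These correlations describe 18 arrays that share tissue, series and scan, and carry no test.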

How the data were processed

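Hippocampal RNA of 18 mice had been hybridised to single-colour arrays, 1 per mouse. Per the labels' protocols, RNA was amplified to amino allyl RNA and coupled to a Cy dye. Per the file headers, each deposited intensity is a spot median, related across 3 scanner gains, with no scaling between arrays named. The authors' second deposited table holds normalized intensity with a median of 25 per array. Its making is not given in the sources used here. It set the printed levels and was an alternative for the tests.

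Spot intensities were corrected with normexp (offset 50, no local background subtracted), quantile normalized and put on the log2 scale. A probe was tested if 4 or more arrays put it above the 95th percentile of their blank spots. With limma 3.58.1 (R 4.3.3), a model was fitted to the 5 combinations of group and array series, with moderated two-sided tests of 7 comparisons and Benjamini-Hochberg adjustment. The fit was tested on simulated data with noise drawn independently for each array. That check therefore does not cover the resemblance of neighbouring arrays. The number of arrays, 3 or 4 per group and series, limits the precision. Probe symbols were updated through RefSeq on GRCm38.p6: of 23473 probes 16631 have 1 symbol and 6842 are not listed.

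Genes named were all members, up to 8 called genes of the oligodendrocyte lists per comparison, called genes of other cell lists, and the 10 most like the members. The members and lists were chosen with earlier results of these data known. Alternatives covered the model, background, scaling, filter, the authors' table and left-out arrays. Leaving out pairs of neighbouring arrays, leaving out the AtrxΔE2 arrays of series 1 from the correlations, and the group-only model were chosen after seeing the data.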

Additional observations from a re-analysis of the deposited data

How the results depend on the processing

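The series differences of the members depended least on the processing: all 8 stayed called in both genotypes under every alternative fitted. Their median moved in AtrxΔE2 mice to 1.65 with an additive model, 1.73 with a normexp offset of 10 and 1.17 with median scaling, and in WT mice to 1.65 with the additive model and 1.44 with median scaling. For 5-ALA-treated against untreated AtrxΔE2 mice, with 5 members called in limma, the count was 1 with neighbouring arrays as a random block, 0 with these arrays averaged in pairs (6 had an unadjusted p under 0.05), 3 with quantile normalization within each series and 2 on the authors' values. It was 3 without WT arrays 4 and 5 or 6 and 7, 1 without AtrxΔE2 arrays 4 and 5, 2 without AtrxΔE2 arrays 6 and 7 and 1 without treated arrays 1 and 2. For treated against WT mice, with 3 called, it was 5 when fitted on series 2 alone, 0 with averaged pairs (5 had an unadjusted p under 0.05), 0 without WT arrays 6 and 7 or treated arrays 1 and 2, and 5 without treated arrays 3 and 4. For AtrxΔE2 against WT mice in series 2, the 1 call (Gjb1) became 0 with the additive model, the random block, averaged pairs, an offset of 10, cyclic loess, quantile normalization within series and the authors' values, and without WT arrays 4 and 5, WT arrays 6 and 7 or AtrxΔE2 arrays 4 and 5. A model of group alone over all 18 arrays pools both series in the AtrxΔE2 and WT groups, while treated mice lie in series 2 only. It called 0 members in all 3 comparisons (also 0 at an unadjusted p under 0.05). The treatment estimates were then positive except for Aspa (-0.094) and Cryab (-0.18), with a median of 0.20, Mbp 0.37, Qdpr 0.024 and Gjb1 0.026. Against WT mice they were positive except for Aspa (-0.038), with a median of 0.38, Mbp 0.62 and Qdpr 0.043. Leaving out each array in turn gave 1 to 6 calls for treatment, 2 to 5 for treated against WT, 0 to 1 for genotype in series 2 and 0 in series 1, with medians from 0.079 to 0.57 for genotype in series 1, from 1.22 to 1.62 for the AtrxΔE2 series difference and from -0.59 to -0.18 for the genotype effect in series 2 minus that in series 1. With the replicate number as a block, 0 members were called for genotype in series 2 (Gjb1, adjusted p 0.0706 in limma; 1 member had an unadjusted p under 0.05). Same-numbered AtrxΔE2 and WT arrays deviated with correlations from -0.14 to 0.51, not all above 0.1, and what they share was not tested. Over all probes, the main fit called 1521 for treatment, 2335 for treated against WT and 543 for genotype in series 2. These counts were 371, 699 and 147 with the random block and 0 in each with averaged pairs. On the authors' values they were 726, 2753 and 353, and with median scaling 973, 1628 and 3951. Of the calls for treated against WT, 53.0% were higher in the main fit, 15.4% on the authors' values and 73.3% with median scaling, and for genotype in series 2 these shares were 50.5%, 14.7% and 32.5%. The authors' values shift the median of all probes by -0.11 for treated against WT mice, -0.25 for the AtrxΔE2 series difference and -0.19 for the WT one. The cause of these changes was not tested. The 3 or 4 arrays per group and series limit the precision.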
